A study of Caenorhabditis elegans with 4 samples.

Results

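The 404 binding sites of EFL-1::GFP on chromosome II of Caenorhabditis elegans were examined, out of 2332 sites on all chromosomes. They are all the peaks that the authors' combined list places on that chromosome, and no measured value entered the choice. The list comes from ChIP-seq, in which DNA crosslinked to a tagged protein is precipitated with an antibody and sequenced, here with goat antibodies against GFP. All samples are fed hermaphrodite larvae of strain YL418 in stage L1, kept at 20 °C and fixed with 2% formaldehyde. The strain carries the unc-119(ed3) allele on chromosome III and the transgene vrIs65, which holds unc-119(+) and EFL-1 fused to GFP and 3xFlag. The ges-1 promoter drives the fusion in the intestine, so the sites are those of a protein placed in 1 tissue by a transgene, and the strain was not outcrossed. There are 2 ChIP libraries, numbered replicates 2 and 3, and 2 Input libraries with the same numbers that have no list of their own here. Nothing in the labels says that the replicates are separate cultures, so their spread may be technical.

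EFL-1 is a worm member of the E2F family, transcription factors that bind DNA together with a DP partner and are known for controlling cell cycle genes, often with a protein of the retinoblastoma family. In C. elegans that partner is DPL-1 and the retinoblastoma protein is LIN-35. The worm's autosomes have a central region rich in conserved and essential genes, flanked by 2 arms with more repeats and more recombination. There is no localised centromere, so left and right are conventions of the genetic map. No control immunoprecipitation was analysed, so binding of the tagged protein and chromatin precipitated without it cannot be told apart. No genome or annotation of the files' build, WormBase WS220, was used here, so sites are named by position, without genes or sequences.

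Each ChIP replicate has its own list of 30000 ranked peaks, and its best 2332 peaks, as many as the combined list holds, are called its best peaks below. A site was found in a replicate when the peaks overlapped by at least 1 bp. The score is the authors' own and most sites share its highest value, 357 of 404 on chromosome II (88.4%) against 88.3% of all combined sites and 88.7% on the other autosomes (odds ratio 0.96, two-sided Fisher's exact test, adjusted p = 1.0). Among these, the order follows the numbers that name the peaks. Read depth is unknown. Intervals are exact Clopper-Pearson 95% intervals and cover counting error only. Fisher's and binomial tests below treat sites as independent, which neighbouring sites are not, so their p-values are likely too small.

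The sites of chromosome II were few on its left and frequent from about the first 30% of its length onward. The chromosome was divided into 3 equal parts of its 15.3 Mb, with a length taken as the largest peak end. The left part, 1 to 5092192, held 78 sites or 15.3 per Mb. The central part, up to 10184384, and the right part, up to 15276577, held 163 sites each, or 32.0 per Mb. The left part thus held 32.4% of the sites in the 2 outer parts (26.5 to 38.7%), below the 50% of an equal split (two-sided exact binomial test, p = 4.6e-08, adjusted p = 2.3e-07 over 5 autosomes). Both replicates showed this split in their own best peaks. Replicate 2 had 75 on the left and 157 on the right, a left share of 32.3% (26.4 to 38.8%), and replicate 3 had 78 and 165, a share of 32.1% (26.3 to 38.4%).

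In windows of 1 Mb the change lay within the fifth, from 4000001 to 5000000. In 20 equal bins the counts rose from 7 sites in bin 6 to 32 in bin 7, centred at 27.5 and 32.5% of the length. The first 4 windows held 16, 7, 16 and 10 combined sites. The fifth held 23, and the 10 full windows after it held between 24 and 39. In the combined list the first 5 windows therefore do not overlap with the later ones in their counts, though the fifth spans the change. The same 5 windows held 18, 7, 14, 10 and 22 of the best peaks of replicate 2, and 15, 7, 18, 11 and 21 of those of replicate 3. The 10 later full windows held 20 to 38 in replicate 2 and 21 to 39 in replicate 3, so in each replicate the first 4 windows lay below the later ones and the fifth did not. The 3 fullest windows had 39 sites each, from 5000001 to 6000000, from 11000001 to 12000000 and from 14000001 to 15000000. The 3 emptiest had 7 sites, from 1000001 to 2000000, 10 sites, from 3000001 to 4000000, and 16 sites, a count shared by the windows starting at 1 and at 2000001. Over the 15 full windows, Spearman's rho between the replicates' counts of best peaks was 0.85, given as a description, since both come from the same genome and strain.

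**Figure D1:**
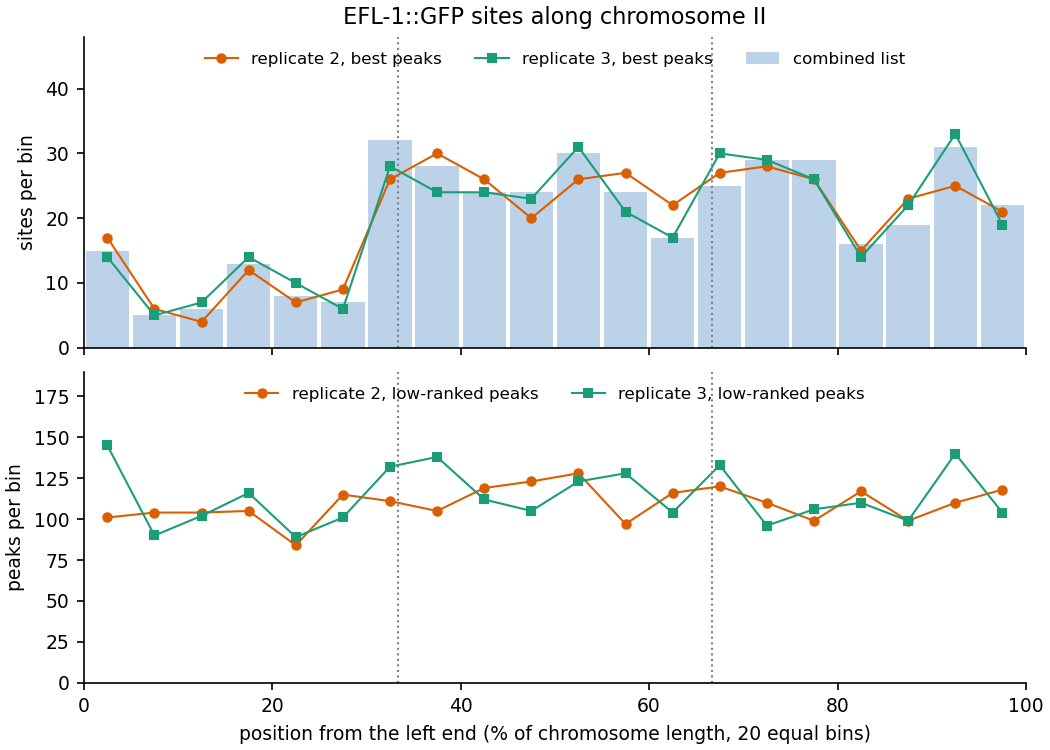
Number of sites or peaks in 20 equal bins from the left end of chromosome II (x axis, percent of its length): above, the combined list as bars and the best 2332 peaks of each replicate as lines; below, replicate peaks ranked 15001 to 30000. Dotted lines bound the 3 equal parts. The first 6 bins hold 5 to 15 combined sites and the remaining 14 hold 16 to 32, while the low-ranked peaks run between 84 and 145 per bin throughout.

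Low-ranked peaks, those ranked 15001 to 30000 in a replicate, were spread much more evenly over chromosome II. Replicate 2 had 679 of them in the left part, 776 in the central and 730 in the right. Replicate 3 had 734, 797 and 742. In replicate 2 the left share of the outer parts was 48.2% (45.6 to 50.8%), and replicate 3 had 49.7% (47.1 to 52.3%). The combined sites differed from both, with an odds ratio of 0.51 against replicate 2 and 0.48 against replicate 3 (two-sided Fisher's exact test, adjusted p = 2.1e-05 and 3.4e-06 over 21 tests added after the data were seen). Between the emptiest and fullest full window the low-ranked peaks varied by 1.52 times in replicate 2 and 1.45 times in replicate 3, against 5.57 times for the combined sites. The windows held 118 to 179 and 122 to 177 low-ranked peaks but 7 to 39 combined sites. Counting error widens such a ratio more at small counts, so part of this contrast comes from the counts. These low-ranked peaks show that peaks were called in all 3 parts.

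The other autosomes split their sites differently. The left share of the outer parts was 65.8% on chromosome IV, 55.0% on chromosome I, 55.0% on chromosome V and 43.6% on chromosome III. Chromosome II lay below each of them. In two-sided Fisher's exact tests its odds ratio was 0.25 against IV (adjusted p = 3.9e-12), 0.39 against I (adjusted p = 1.8e-06) and 0.39 against V (adjusted p = 1.1e-05). The smallest of these 4 differences was that to III, with an odds ratio of 0.62 (same exact test, adjusted p = 0.024). As left and right are conventions, the size of these differences depends on how each chromosome is oriented on the map. Without regard to side, IV was about as uneven as II, with 158 and 82 sites in its outer parts beside 78 and 163. An uneven split was not limited to chromosome II, since IV departed from 50% in the opposite direction (two-sided exact binomial test, adjusted p = 2.6e-06 over 5 autosomes) and III in the same direction (adjusted p = 0.048). For I and V the exact test gave adjusted p = 0.12 and 0.18.

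**Figure D2:**
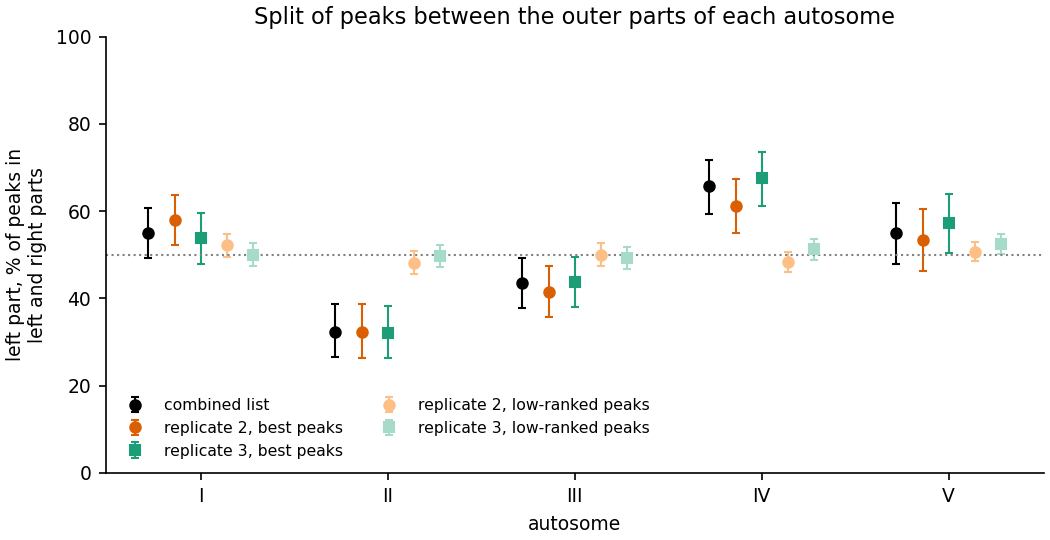
Share of the left part among peaks in the left and right parts of each autosome (y axis, percent), for the combined list, the best 2332 peaks and the peaks ranked 15001 to 30000 of each replicate. Bars are exact 95% intervals and the dotted line marks 50%. On chromosome II the combined list and both replicates lie between 32.1 and 32.4%, below the 48.2 and 49.7% of the low-ranked peaks.

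No difference between chromosome II and the other autosomes was detected in the share of the central part. It held 163 of 404 sites, 40.3% (35.5 to 45.3%), beside 40.5% of all combined sites in the central part of their chromosomes and 41.3% on the other autosomes (39.0 to 43.7%). The odds ratio was 0.96 (two-sided Fisher's exact test, adjusted p = 1.0 over 8 comparisons of chromosome II with the other autosomes). Densities differed between the single autosomes, with 33.1 sites per Mb on I, 37.8 on III, 22.6 on IV and 17.6 on V. The density of the whole of chromosome II was 26.4 sites per Mb, against 26.5 per Mb for the other 4 autosomes together. Their ratio was 0.996 (0.89 to 1.11; two-sided exact binomial test, adjusted p = 1.0).

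The best-ranked sites of chromosome II were found near the top of both replicates and in all 3 parts. Chromosome II held 2 of the 10 best combined sites, 12 of the best 50 and 23 of the best 100. Of all 2332 combined sites it held 404. The best 100 share the highest score, so their order follows the peak numbers. The site of rank 1, in the left part at 4999174 to 4999496, was also first in replicate 2 and had rank 9 in replicate 3. It lay at 32.7% of the length, in the denser right end of that part. The site of rank 3, at 10563374 to 10563674 in the right part, ranked 2 in both. No other combined site of the chromosome ranked as high in either replicate. The next 2 lay close to opposite ends of the chromosome. One, of rank 15, was at 15010430 to 15010716 and ranked 17 in both replicates. The other, of rank 16, was at 216629 to 216933, inside the sparse left part, with rank 21 in one replicate, number 2, and rank 14 in the other. The best site of the central part, of rank 20, was at 7945155 to 7945461 and had the replicate ranks 36 and 15.

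The remaining 5 of the best 10 sites were spread in the same way. Another site of the left part, at 4851686 to 4851966, also lay in its denser right end. That site had rank 24 in the combined list, 29 in replicate 2 and 21 in replicate 3. On the right, the site at 13156945 to 13157211 had rank 26 in the combined list and 28 and 20 in the replicates, in the same order. The site at 14383603 to 14383887, also on the right, had rank 28, and 27 and 32 in the replicates. The central part added 2 more, at 5389995 to 5390254 and at 9716659 to 9716930. The first had rank 31, and 32 and 34 in the replicates, and the second had rank 40, and 37 and 46. In each of the 10 the replicate midpoints lay within 13.5 bp of the combined midpoint.

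The replicates supported about as large a share of sites on chromosome II as on the other autosomes. Of the 404 sites, 305 overlapped a best peak of replicate 2 (75.5%, 71.0 to 79.6%), where all combined sites had 73.8% and the other autosomes 75.5%. In replicate 3 the count was 362 (89.6%, 86.2 to 92.4%), where all combined sites had 90.1% and the other autosomes also 90.1%. Both replicates supported 271 sites (67.1%, 62.3 to 71.6%), against 66.7% of all combined sites and 68.5% on the other autosomes (66.2 to 70.6%). Replicate 3 alone supported 91 sites, replicate 2 alone 34, and neither 8. No difference from the other autosomes was detected in any of the 3 shares, with odds ratios of 0.999, 0.94 and 0.94 (two-sided Fisher's exact test, adjusted p = 1.0 for each). As the combined list was made from these replicates, part of the support is built in.

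Over the whole replicate lists, 385 sites overlapped a peak of replicate 2 (95.3%, against 95.1% of all combined sites). All 404 overlapped a peak of replicate 3, against 99.9% of all combined sites, and 0 of 404 without a partner allows a share of up to 0.743%, taking 3 counts as the limit of a count of 0 in place of the exact interval. Partners lay close: the median distance between midpoints was 14 bp in replicate 2 and 4.75 bp in replicate 3. For 93.5% and 97.8% of the partnered sites it was at most 100 bp. Spearman's rho of the replicate ranks was 0.82 among the 385 sites with both, and 0.81 on the other autosomes. Many of these ranks rest on the numbering of tied peaks. Replicate 3 gave the better rank at 209 sites, 54.3%, and on the other autosomes at 53.9%.

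The 19 sites with no peak in replicate 2 stood late in the combined list, with ranks from 1347 to 2295 and a median of 2078. Those ranked before 2059 still share the highest score, so their order follows the peak numbers. All 19 were 290 bp wide, as were all other sites of chromosome II in the last 2 of 4 equal rank groups, where the 19 fall. All were among the best peaks of replicate 3, with a median rank there of 1614, beside 89.6% of all sites on the chromosome. As the combined list was made from these replicates, part of this is built in. The 19 fell into the left part 3 times, the central part 9 times and the right part 7 times. These parts held 19.3, 40.3 and 40.3% of all sites on the chromosome. The 5 best-ranked were at 14496746 to 14497035 (rank 1347), 11484635 to 11484924 (rank 1494), 14250248 to 14250537 (rank 1509), 9060278 to 9060567 (rank 1540) and 10395362 to 10395651 (rank 1757). Their ranks in replicate 3 were 1297, 1218, 1375, 1347 and 1485.

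Sites with discordant ranks were more extreme on the side of replicate 3. The largest difference was at 9061058 to 9061347, which ranked 1711 in replicate 3 and 29564 in replicate 2, with midpoints 168 bp apart in the latter. The next 4 of this kind, at 10174368 to 10174657, 6891117 to 6891406, 6565089 to 6565378 and 6600986 to 6601275, ranked 1782, 2023, 1815 and 1615 in replicate 3. Their ranks in replicate 2 were 28953, 24834, 23669 and 21517. Midpoints there were 161 bp apart at the last of them and at most 13 bp at the others. All 5 were in the central part, which held 40.3% of the sites. In the other direction, the largest difference was at 14405184 to 14405473, with rank 1110 in replicate 2 but 22197 in replicate 3. Its midpoints were 182 bp apart in replicate 3. The 4 after it, at 15111342 to 15111631, 9229618 to 9229907, 12799932 to 12800221 and 8741973 to 8742262, ranked between 1124 and 1385 in replicate 2 and between 5152 and 6854 in replicate 3. Midpoints in replicate 3 were 176 bp apart at the last of them and at most 2 bp at the others. Where midpoints lie this far apart, the overlapping peak may not mark the same site.

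**Figure D3:**
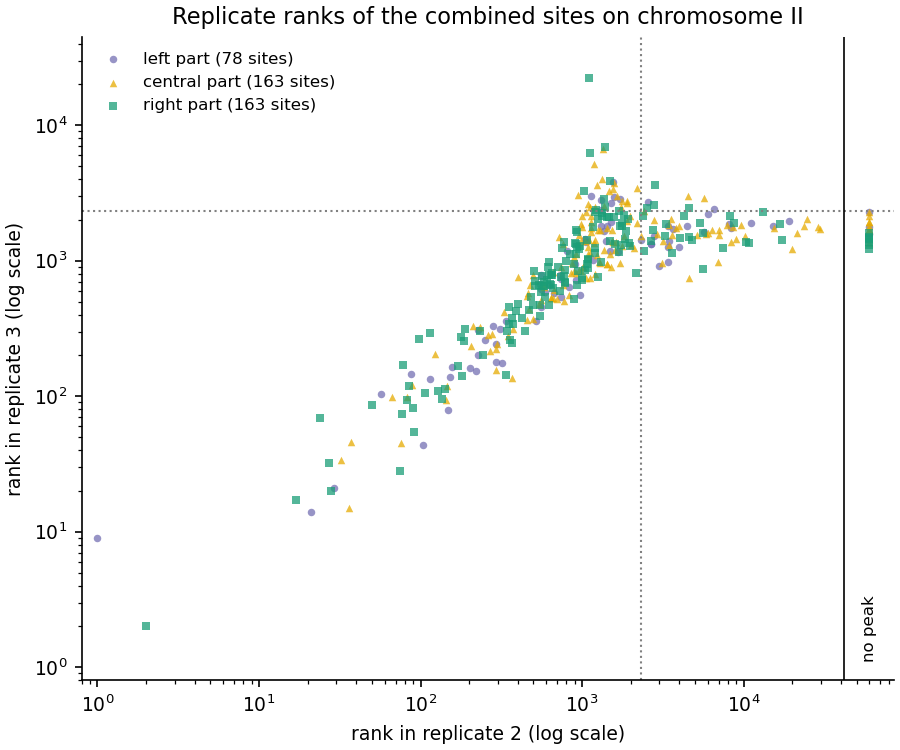
Rank in replicate 2 (x axis, log scale) and in replicate 3 (y axis, log scale) of the best-ranked overlapping peak for each of the 404 combined sites on chromosome II, by part of the chromosome. Dotted lines mark rank 2332, and the 19 sites right of the solid line have no peak in replicate 2. The 2 ranks follow each other up to about the first 1000 and spread beyond, farther along the axis of replicate 2.

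Strong sites were less frequent in the central part of chromosome II than in its outer parts. A site was called strong here when it ranked within the first 1000 of both replicates. Many replicate ranks rest on the numbering of tied peaks, so strong means early in both lists and is no measure of binding. On chromosome II 164 of 404 sites did (40.6%, 35.8 to 45.6%), against 36.4% of all combined sites and 37.9% on the other autosomes. In the left part 36 of 78 sites were strong (46.2%), in the central part 51 of 163 (31.3%), and in the right part 77 of 163 (47.2%). The central part thus had 31.3% and the outer parts together 46.9%, an odds ratio of 0.52 (two-sided Fisher's exact test, adjusted p = 0.0068). It was 0.56 for the first 500 (two-sided Fisher's exact test, p = 0.027). For the first 2000 it was 0.72 and did not pass (exact p = 0.12). With ranks of replicate 2 alone it was 0.54 (exact p = 0.0032), and with those of replicate 3 alone 0.64 (exact p = 0.033).

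On the other autosomes the shares of strong sites were closer, 36.4% in the central and 39.0% in the outer parts (odds ratio 0.90, two-sided Fisher's exact test, adjusted p = 0.43). The outer share exceeded the central by 15.6 percentage points on chromosome II, and by 2.70 on I, 1.80 on III, 4.78 on IV and 0.81 on V. The ratio of the 2 odds ratios was 0.57 (0.36 to 0.91, interval from the log odds). By Zelen's exact test of equal odds ratios, two-sided, this difference had p = 0.021 and missed the threshold of 0.05 after adjustment (adjusted p = 0.055). It was 0.58 with replicate 2 alone (exact p = 0.018) and 0.75 with replicate 3 alone (exact p = 0.22). For the first 500 it was 0.69 (exact p = 0.21) and for the first 2000 0.84 (exact p = 0.49). A lower central share of strong sites is therefore not shown to be particular to chromosome II. The left part and the other 2 parts together did not differ detectably in strong sites (odds ratio 1.33, two-sided Fisher's exact test, adjusted p = 0.43) or in sites supported by both replicates (0.74, adjusted p = 0.43).

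Neighbouring sites on chromosome II were separated by a median of 22.0 kb between midpoints, with quartiles of 7.64 and 50.1 kb and a mean of 37.7 kb. The standard deviation of the 403 gaps was 1.24 times their mean. On the other autosomes this quotient was 1.17 on I, 1.16 on III, 1.33 on IV and 1.49 on V. Of the gaps on chromosome II, 76 were at most 5 kb (18.9%, 15.2 to 23.0%), where all chromosomes together had 19.4% and the other autosomes 20.6% (18.7 to 22.5%). The odds ratio was 0.90 (two-sided Fisher's exact test, adjusted p = 1.0). At most 2 kb separated 26 neighbours on chromosome II (6.45%) and 178 on the other autosomes (9.99%), an odds ratio of 0.62 with an unadjusted p = 0.029 by the same exact test, at 1 of 4 distances tried. Chromosome II had 2 pairs of combined sites that overlap each other and share a replicate peak, so 2 of its gaps may lie within 1 site.

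The gaps differed between the parts of chromosome II as the densities do. The median was 36.8 kb in the left part, 17.6 kb in the central and 18.5 kb in the right. The longest gap within a part was 405 kb on the left, 174 kb in the centre and 160 kb on the right. All of the 5 longest gaps of the chromosome lay in the left part, and they add up to 1485 kb.

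The longest gap, of 405 kb, was free of combined sites from 3077180 to 3482247. It held 80 peaks of replicate 2 (197 per Mb), the best of rank 3252, and 66 of replicate 3 (163 per Mb), the best of rank 2291. Of the 80 peaks, 12 overlapped one of replicate 3. Chromosome II as a whole held 287 peaks per Mb of replicate 2 and 307 of replicate 3, so this gap was below the chromosome in both but not empty. Those densities include the peaks at combined sites, which a gap lacks by choice, so part of the shortfall is built in.

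The next gap ran from 1437888 to 1736376, with 214 and 245 peaks per Mb in replicates 2 and 3. Then followed 580519 to 873470, with 208 and 253 per Mb, and 873761 to 1134893, with 184 and 191 per Mb. These 2 are parted by a single site at 873471 to 873760, of rank 1927, which is 1 of the 19 without a peak in replicate 2. The fifth ran from 4377040 to 4603149, with 283 and 243 per Mb. None of the 5 gaps held more than 3 best peaks of replicate 2 or more than 1 of replicate 3. As the gaps were chosen for holding no combined site, and that list was made from these replicates, such low counts are largely built in. Longer gaps occurred on chromosome IV, up to 473 kb, and on V, up to 751 kb. The longest was 314 kb on I and 248 kb on III.

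**Figure D4:**
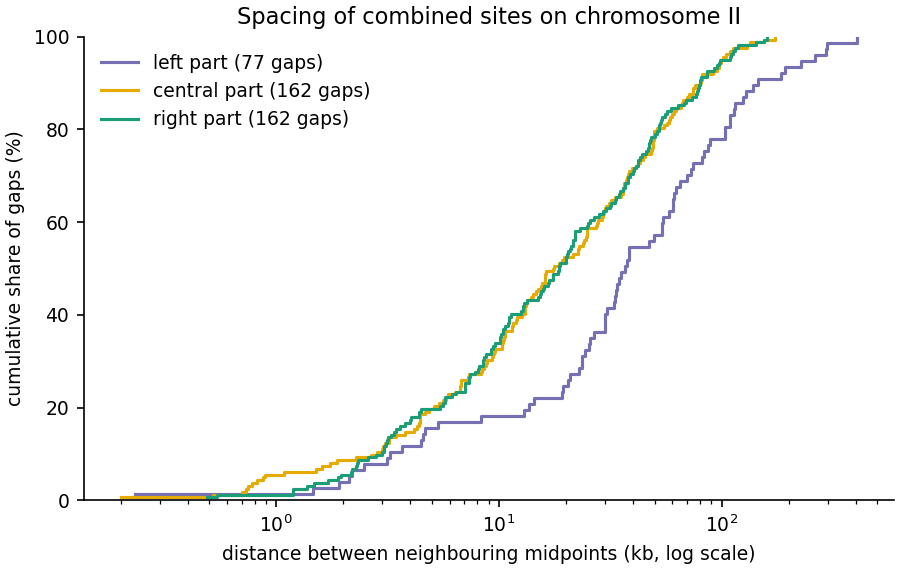
Cumulative share (y axis, percent) of the distances between neighbouring midpoints of combined sites within each part of chromosome II (x axis, kb, log scale). The curves of the central and right parts run together, with medians of 17.6 and 18.5 kb, and that of the left part lies at longer distances, with a median of 36.8 kb.

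Runs of 4 consecutive sites spanning at most 20 kb held 46 of the 404 sites on chromosome II (11.4%), where all combined sites had 13.4%. The share was 13.6% on I, 21.7% on III, 13.9% on IV and 8.13% on V. As runs share sites, no test was made. Of the 46 sites, 4 were in the left part, 24 in the central and 18 in the right, where these parts held 78, 163 and 163 sites. Both replicates supported 27 of the 46 (58.7%) and 15 were strong. Of all 404 sites, both replicates supported 67.1% and 40.6% were strong. Having a neighbour within 5 kb went with no detectable difference in support: 65.0% of 137 such sites and 68.2% of the 267 others were supported by both replicates (odds ratio 0.87, two-sided Fisher's exact test, adjusted p = 0.72).

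The 5 tightest runs that share no site each held exactly 1 strong site. The tightest, at 9054667 to 9061347 in the central part, spanned 6457 bp between its outer midpoints. Its sites had ranks 449, 926, 1540 and 2104 from left to right, and it includes both a site with no peak in replicate 2 and the site with the largest rank difference of the chromosome. The second, at 14244483 to 14251919, spanned 7143 bp with ranks 1496, 1705, 1509 and 212. In the left part, the third run lay at 4698348 to 4706653 and spanned 8049 bp, with ranks 319, 1403, 1556 and 1327. Its middle 2 sites overlap each other and match the same peak in each replicate. The fourth, at 14794883 to 14804510, spanned 9322 bp with ranks 119, 1664, 1668 and 1012. The fifth, at 6346834 to 6361100, spanned 13977 bp with ranks 1908, 732, 1015 and 910. In the first 4 runs the strong site stood at 1 end of the run.

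Widths varied only among the better-ranked sites. The commonest width of 290 bp was shared by 281 of 404 sites (69.6%, 64.8 to 74.0%), against 72.2% of all combined sites and 70.8% on the other autosomes (odds ratio 0.94, two-sided Fisher's exact test, adjusted p = 1.0). Of the others, 115 were narrower and 8 wider. The combined list was cut into 4 rank groups of equal size. In the best group, 4 of 107 sites on chromosome II had that width, in the next 80 of 100, and in the last 2 groups all 103 and all 94. The widest sites were the site of rank 1 with 323 bp, the site at 14794883 to 14795204 of rank 119 with 322 bp, and the site at 13199652 to 13199967 of rank 122 with 316 bp. Among the narrowest were those at 12738871 to 12738942 with 72 bp, 12184936 to 12185008 with 73 bp and 13976248 to 13976321 with 74 bp. Another site, of rank 611 at 14969395 to 14969468, also had 74 bp. The first 3 had ranks 597, 607 and 559, and ranked between 510 and 661 in the replicates, so they were narrow without being late in the lists. Together the sites covered 0.694% of chromosome II and 0.695% of the other autosomes.

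Support fell with rank on chromosome II as on the other autosomes. As the combined list was made from these replicates, part of this fall is built in. Both replicates supported all 107 sites of the best rank group, 94 of 100 in the next and 65 of 103 in the one after it (63.1%, against 60.6% on the other autosomes). In the last group the share was 5 of 94 (5.32%), against 60 of 433 on the other autosomes (13.9%), a difference that missed the threshold of 0.05 after adjustment (odds ratio 0.35, two-sided Fisher's exact test, p = 0.023, adjusted p = 0.055). From the best rank group to the last, the left part held 25, 15, 17 and 21 sites and the right part 46, 50, 39 and 28. The left part was thus below the right in each group.

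**Figure D5:**
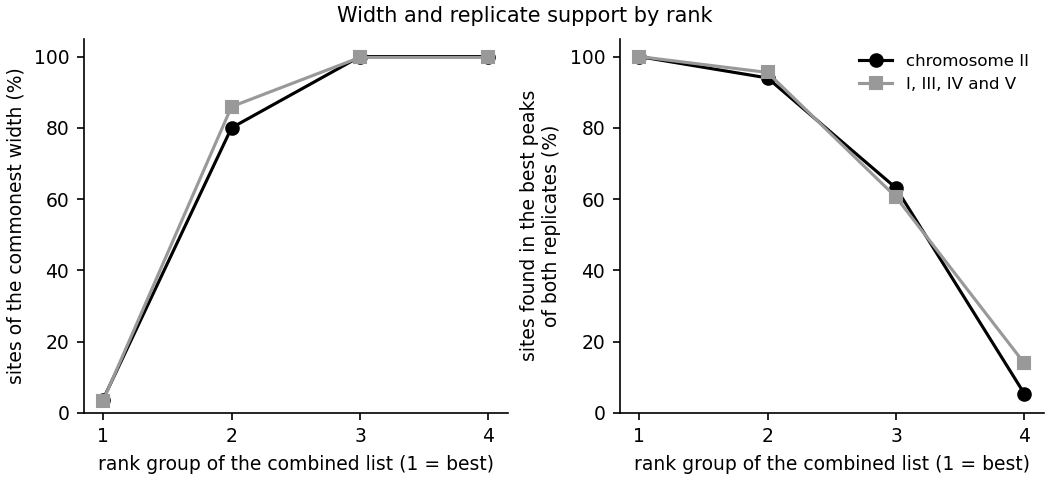
Share of combined sites with the commonest width of 290 bp (left) and share found in the best peaks of both replicates (right), in percent, by rank group of the combined list (4 groups of equal size), for chromosome II and for chromosomes I, III, IV and V together. The width share on chromosome II goes from 3.74% in the best group to 80% and then 100%, and the supported share from 100% to 5.32%.

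Some best peaks of single replicates on chromosome II were left out of the combined list. Replicate 2 had 397 best peaks there, of which 91 overlapped no combined site (22.9%, against 24.3% on the other autosomes). Of these 91, 45 overlapped some peak of replicate 3. Replicate 3 also had 397, of which 34 were outside the combined list (8.56%, against 8.95%), and 10 of the 34 overlapped a peak of replicate 2. The best-ranked peak left out was of rank 907 in replicate 2 and of rank 1751 in replicate 3.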

How the data were processed

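The files are 3 lists of peaks with starts and ends on WormBase WS220, per the file headers: a list for each of ChIP replicates 2 and 3 and a combined list. Each peak carries a deposited score of a kind the headers do not name. Per the file headers and rows, the authors called peaks with SPP and passed them through IDR, which ranks peaks by their reproducibility. For the aligner, the IDR threshold, the read numbers, the pooling and the Input's use, details were not given in the sources used here. Within a list, peaks were ranked by score and tied peaks by their numbers. Overlaps, gaps and shares were computed with Python 3.11.15, pandas 2.3.3 and numpy 2.4.6, and exact tests with scipy 1.17.1: binomial, Fisher's, and Zelen's test for equal odds ratios. P-values were adjusted by the Benjamini-Hochberg method. The scripts were tested on simulated lists of known overlap and split. Sites named in the text are the 10 best-ranked, 5 tightest runs, 5 longest gaps, 5 best-ranked without a partner, 5 most discordant each way, 3 widest and narrowest, and the 3 fullest and emptiest windows. The members and lists were chosen with earlier results of these data known.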

Additional observations from a re-analysis of the deposited data

How the results depend on the processing

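Under a first set of other settings, 24 of 36 tested values stayed on the same side of no difference and of the unadjusted threshold of 0.05, as did 15 of 19 under settings added after the data were seen. The left share on chromosome II kept both under all 7 other settings, between 28.4% and 40.1%. The 40.1% is for the left against the right 50% of the whole chromosome. The values with a single replicate are those of its own best peaks, given above. The other 4 of those 19 are the strong sites in the central part with the first 2000 ranks (odds ratio 0.72) and their comparison with the other autosomes at 0.69 with the first 500, 0.84 with the first 2000 and 0.75 with replicate 3 alone. With replicate 2 alone that comparison stayed past the threshold, at 0.58. Ratios of chromosome II to the other autosomes that are close to 1 moved to the other side of it without passing the threshold. The density ratio was 1.02 with sites merged within 5 kb. Support in replicate 2 had odds ratios of 1.09 at 50% reciprocal overlap, 1.05 with the best 1166 and 1.06 with double the replicate peaks, and support in both 1.01, 1.03 and 1.04. The middle 50% of the chromosome gave 1.003 for the central share. With a single replicate, gaps of at most 5 kb ranged from 0.88 to 1.03 and the highest score from 1.06 to 1.30. Gaps of at most 2 kb passed, at 0.62. Runs held 16 sites within 10 kb, 152 within 40 kb and 0 in the better-ranked 1166 sites. The longest gap was 629 kb in those 1166 sites, which are fewer, and from 353 to 405 kb with a single replicate. No cause was tested for the other changes. No paired analysis was possible because only the ChIP libraries have values here, and the Input libraries with the same numbers have none. Read depth is unknown.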
